A study of Mus musculus with 8 samples.

Results

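The histone genes of cultured mouse tail tendon fibroblasts were compared between cells that contain scleraxis and cells in which it was deleted. Members were the rows of the deposited count table whose symbol begins with Hist1h, Hist2h, Hist3h, Hist4h, H2af, H3f or H1f, without the pseudogene ending -ps, and whose mean raw count over the 8 libraries was at least 5. The rule kept 30 of 84 such rows in a table of 24982 genes: 20 genes of the histone clusters (symbols starting Hist) and 10 variant genes (H2af, H3f and H1f). The other 54 rows, 48 clustered and 6 variant, fell below 5, and 14 rows were listed at 0 in every library. The 3 members just inside the limit were Hist1h2ac with a mean count of 5.25, Hist1h1b with 6.25 and Hist1h2bj with 6.5. Just outside it were Hist1h4d with 4.38, Hist1h4a with 4.13 and Hist1h2ae with 3.88. Because the rule uses the level, the levels below are a description.

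Scleraxis (Scx) belongs to the basic helix-loop-helix factors and marks the tendon lineage, and the series asked how its loss changes the tenocyte transcriptome by RNA sequencing. The ScxWT group held 4 libraries of genotype Scx+ and the ScxKO group 4 libraries of genotype Scx-, all from strain C57Bl/6 and all from cells given 4HT. So the agent was shared by both groups. The ScxWT libraries carry the numbers 2, 3, 5 and 6 and the ScxKO libraries 2, 3, 4 and 5, and library values are given in that order throughout. No source used here names the driver of the deletion, the age of the animals, or whether each library came from its own animal or culture, so p-values measure only the spread between these libraries.

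The libraries held 17343228 to 25180790 counts in genes. Scx, the deleted gene, had 177, 132, 252 and 156 counts in the ScxWT libraries and 3, 1, 2 and 3 in the ScxKO libraries, so every library went with its label. Tendon fibroblast markers were present in every library, with a summed level of 10005 to 12601 CPM (counts scaled to a common library size) in ScxWT and 7369.8 to 8117 CPM in ScxKO. In that marker list, which includes the deleted gene Scx, 9 of 12 genes fell and 1 rose. Of all tested genes 14.5% were called lower and 14.0% higher. Markers of macrophages, endothelium, muscle, keratinocytes and glia summed to at most 86.4 CPM per list in any library, and mural cell markers to 668 to 792 CPM in ScxWT and 887 to 908 CPM in ScxKO. The part of these shifts in the results below was not tested. ScxWT replicate 5 stood apart: its counts differed from those of the other ScxWT libraries by a chi-square of 11.6 to 13.3 per degree of freedom, against 2.42 to 4.51 for every other pair within a group.

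Histones package DNA. The core histones H2A, H2B, H3 and H4 form the nucleosome and H1 binds the linker DNA between nucleosomes. Most core histone and H1 genes lie in clusters and are transcribed mainly in S phase. Their mRNAs typically end in a short conserved stem-loop, bound by the protein SLBP, instead of a poly(A) tail, and are degraded when replication stops. Variant genes such as those of H3.3, H2A.Z, H2A.X, macroH2A and H1.0 lie outside the clusters, are mostly spliced or polyadenylated, and are expressed outside S phase as well, so that they supply histones to cells that divide little.

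The stem-loop was searched in the longest protein-coding transcript of each gene (GENCODE M21, build GRCm38) as a fixed pattern of 16 bases. The pattern was a stem of 6 bases, GGYYCT (Y is C or T), a loop of 4, TTTH (H is A, C or T), and the reverse complement of the stem. Stem-loops off this pattern, or beyond the annotated end of the transcript, were not counted. It was found in 16 of the 30 members, 15 clustered genes and the variant H2afx, and in 47 of 21877 protein-coding genes in all (0.215%). The sequences of 5 clustered members from the H1, H2A, H4 and H2B families, of H2afx and of a clustered row listed at 0 are shown because 3′ ends are set beside levels below. The stem-loop is in capitals, with 5 flanking bases on each side, read 5′ to 3′ along the transcript.

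Hist1h1c: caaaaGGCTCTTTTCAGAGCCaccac

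Hist3h2a: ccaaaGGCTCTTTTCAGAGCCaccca

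Hist1h4h: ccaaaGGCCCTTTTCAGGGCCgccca

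Hist1h4i: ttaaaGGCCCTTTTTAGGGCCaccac

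Hist1h2bb: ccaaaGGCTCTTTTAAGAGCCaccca

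H2afx: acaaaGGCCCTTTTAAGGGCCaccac

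Hist2h2aa1: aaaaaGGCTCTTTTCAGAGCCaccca

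All 7 lie in annotated 3′ untranslated regions. The Hist1h1c stem-loop is at chr13:23739512-23739527 on the plus strand with 840 annotated bases after it, and that of Hist3h2a at chr11:58955172-58955187 (plus) with 1643 bases after it. For H2afx it is at chr9:44335240-44335255 (plus), with 822 bases after it. In Hist1h2bb, at chr13:23747203-23747218 (plus), only 23 annotated bases follow. Hist1h2bc, the most abundant clustered member, has no stem-loop in its representative transcript.

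Variant genes carried most of the histone mRNA that these libraries counted. The 10 variants summed to 721 ± 26.6 CPM in ScxWT and 660 ± 13.6 CPM in ScxKO (SD, n = 4), and the 20 clustered members to 128 ± 8.47 and 136 ± 4.27 CPM. The variant sum was 706 to 761 CPM in the ScxWT libraries and 644 to 674 CPM in the ScxKO libraries, so the groups did not overlap. The clustered sums, at 120 to 140 and 133 to 142 CPM, did. Hist1h2bc and Hist1h1c held 80.8% of all counts of the clustered members, and without both the class summed to 24.5 ± 2.81 and 26.1 ± 0.820 CPM.

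Per kilobase of transcript in the count table, H3f3b was the most abundant histone gene in ScxWT, at 90.2 ± 0.199 CPM per kb, before H1f0 at 69.1 ± 3.50. Hist1h2bc at 54.4 ± 2.37 and H2afz at 50.6 ± 1.93 followed, less than their summed SDs apart, then H2afy at 47.3 ± 0.666. H2afj (33.6 ± 7.63) and Hist1h1c (26.1 ± 2.77) could not be ordered beyond their spread. Neither could H2afx (20.9 ± 3.55), H2afv (19.3 ± 1.76) and H3f3a (17.9 ± 0.745). H2afy2 stood at 10.1 ± 0.261. Every other member was under 6 CPM per kb, led by Hist1h4h (5.75 ± 1.02), H1fx (5.53 ± 0.926) and Hist1h2al (5.14 ± 2.28), whose SDs overlap. This order is that of the count table only. In the authors' deposited table of their own comparison, the normalized mean, not per kilobase, was 9532 for H3f3a, 8165 for H3f3b and 3794 for H1f0.

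**Figure D1:**
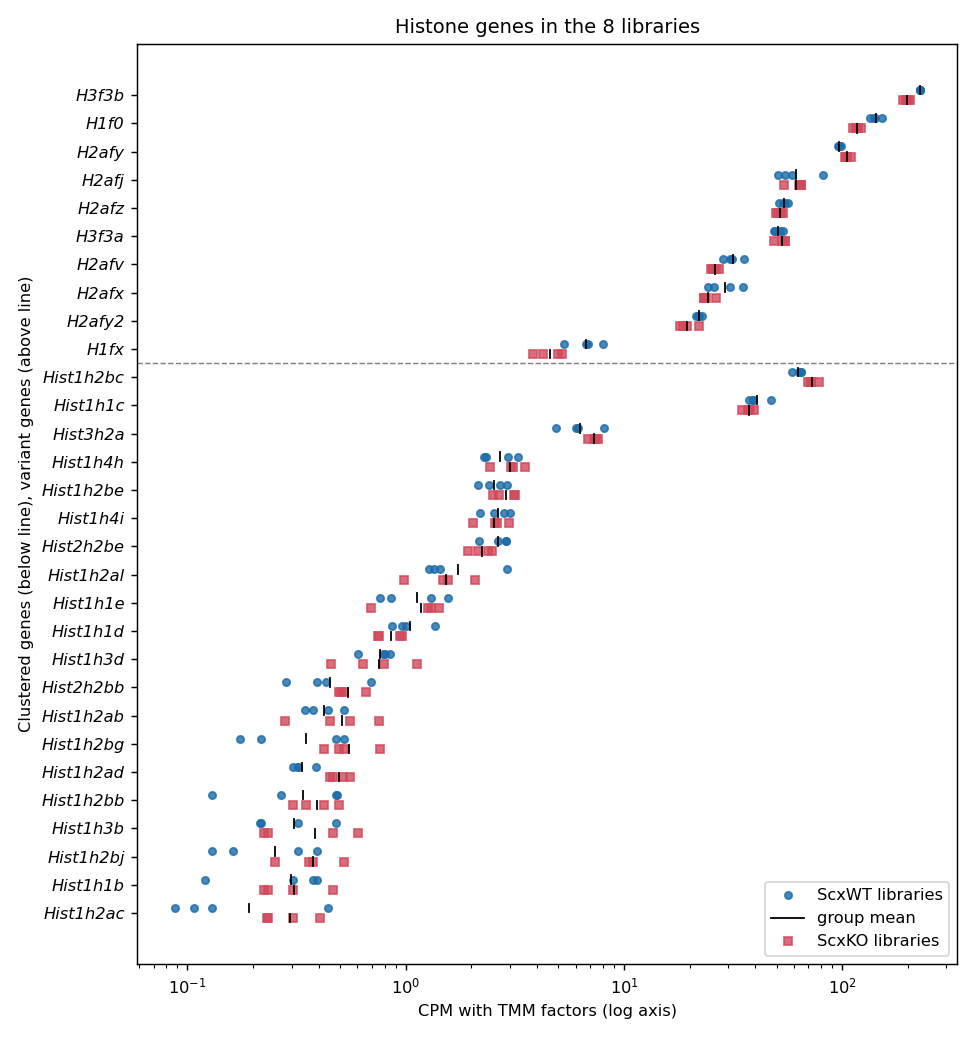
Level of each of the 30 histone members in each library, as CPM on a log axis, with ScxWT libraries as blue circles, ScxKO libraries as red squares and group means as black bars; variants are above the dashed line and clustered genes below it. All variants but H1fx lie above all clustered genes but Hist1h2bc and Hist1h1c, and most genes have overlapping groups.

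In ScxKO, 4 variant genes fell (H1fx, H1f0, H2afv and H3f3b), 1 variant rose (H2afy) and 1 clustered gene rose (Hist1h2bc), by 0.12 to 0.56 on the log2 scale in either direction. These were the calls among the 23 members with enough counts to be tested, 13 clustered and 10 variant. The test was the quasi-likelihood test of edgeR, with p-values adjusted over 13125 genes by Benjamini-Hochberg and a threshold of 0.05. In the same fit 14.0% of all tested genes were called higher, 14.5% lower and 28.5% in either direction. The 6 calls among 23 members are near that background, while the 4 lower calls are all among the 10 variants. The classes were not equally measurable. The standard error was 0.04 (H3f3b) to 0.13 (H1fx) in the variants, 0.05 in Hist1h2bc and 0.07 in Hist1h1c. In the other tested clustered genes it was 0.13 (Hist3h2a) to 0.37 (Hist1h2bg), so a fall such as the -0.20 of H3f3b could be missed there. The median log2 change was -0.19 over the 10 variants, 0.07 over the 13 clustered genes and -0.01 over all tested genes. In this fit no clustered member was called lower and none had an unadjusted p under 0.05 in that direction, and DESeq2 and limma-voom called 0. Hist1h1c was called lower under other settings, given with its values below. These shares and medians describe the lists. The difference between the classes was not tested. Without ScxWT replicate 5 the calls were 4 higher, now with H2afj and Hist3h2a, and 4 lower. In that fit the calls over all genes rose as well, to 2409 higher and 2310 lower of 13183 tested. With all 8 libraries they were 1842 higher and 1902 lower of 13125.

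The same 6 genes were those whose libraries did not overlap between the groups among tested members, against 29.1% of all tested genes. One untested member, Hist1h2ad, did not overlap either: its counts were 9, 6, 8 and 7 in ScxWT and 11, 11, 8 and 10 in ScxKO, or 0.306 to 0.390 and 0.450 to 0.557 CPM. At 6 to 11 counts per library it was not tested by edgeR, and in the authors' deposited table its log2 change was -0.03 (adjusted p = 0.981).

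**Figure D2:**
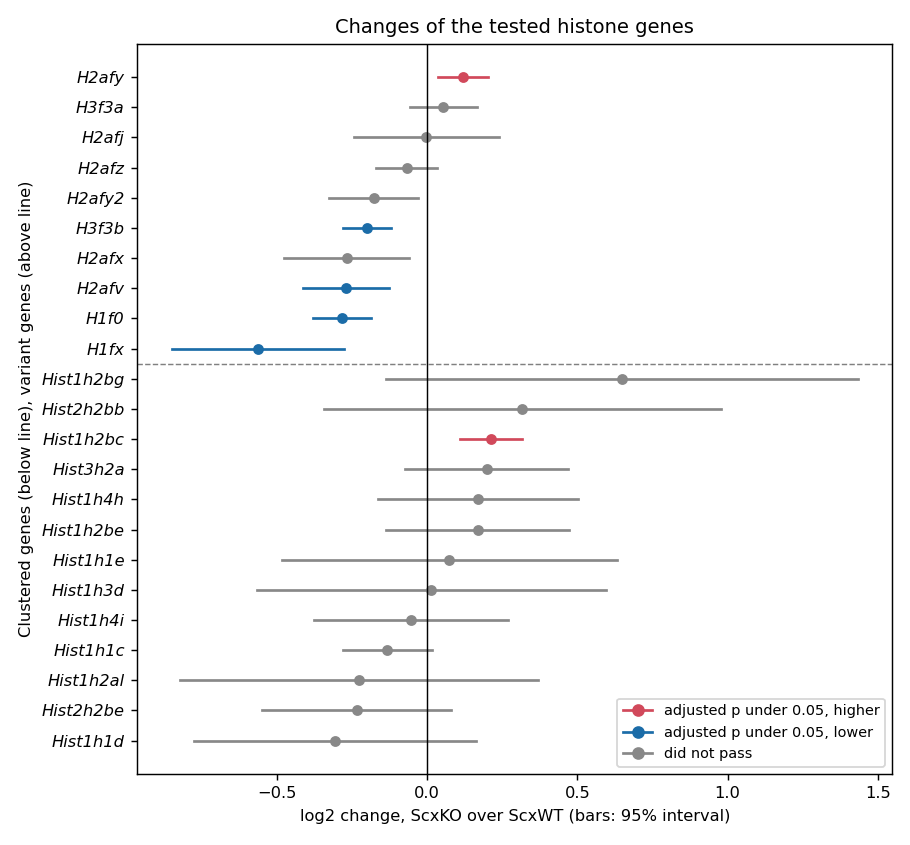
Log2 change of ScxKO over ScxWT for the 23 tested histone members, with 95% intervals from the edgeR fit; blue marks adjusted p under 0.05 and lower, red higher, grey not passed. The called genes lie between -0.56 and 0.21, and the widest intervals are those of clustered genes with few counts, such as Hist1h2bg.

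Among linker histones, both H1 variants fell. H1f0 encodes H1.0, the linker histone that accumulates in cells that have slowed or stopped dividing. Its level was 139.9, 141.9, 152 and 135 CPM in ScxWT and 121.5, 116, 112 and 118 CPM in ScxKO. Every ScxKO library was below every ScxWT library, with a log2 change of -0.28 ± 0.05 (SE, adjusted p = 0.000239, edgeR). H1fx, which encodes the variant H1X, was at 6.71, 5.30, 8.05 and 6.86 CPM against 5.01, 3.84, 4.24 and 5.22 CPM, and it had the largest change of any called member, -0.56 ± 0.13 (adjusted p = 0.00514, edgeR). With per-library offsets for GC content and transcript length this change was -0.31 (adjusted p = 0.0186, edgeR). H1fx is the most GC-rich of the variants, at 71.3% of its transcript, and 19.5% of its exonic bases lie in other annotated genes on both strands.

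The clustered H1 genes did not pass. Hist1h1c, the clustered H1 gene with the most counts here, was at 39.2, 39.1, 47.1 and 37.4 CPM in ScxWT and 37.9, 34.7, 39.4 and 36.9 CPM in ScxKO (log2 change -0.13 ± 0.07, adjusted p = 0.175, edgeR). It passed with the GC and length offsets (-0.15, adjusted p = 0.0157, edgeR). The highest value was that of ScxWT replicate 5, and the other libraries of both groups overlapped. Hist1h1d (-0.31 ± 0.22), the clustered H1 gene with the largest change, and Hist1h1e (0.07 ± 0.26) had 12 to 36 counts per library. Hist1h1b, at 3 to 9 counts, was not tested.

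The H3.3 genes, H3f3a and H3f3b, encode the same replication-independent H3 and did not show the same result. H3f3b was at 226.2, 226.6, 227 and 226.6 CPM in ScxWT and 199.8, 195, 205 and 191 CPM in ScxKO, a log2 change of -0.20 ± 0.04 (adjusted p = 0.000875, edgeR). The ScxWT libraries were nearly equal (SD 0.499 CPM) and all above the ScxKO libraries. H3f3a was at 48.8, 53.2, 51.7 and 49.2 CPM against 54.8, 48.5, 54.7 and 52.8 CPM, and the groups overlapped (0.05 ± 0.05, 95% interval -0.06 to 0.17, adjusted p = 0.476, edgeR). The difference between the genes was not tested. The counts of H3f3a are less certain, since 22.8% of its exonic bases lie in opposite-strand genes (H3f3aos and Gm17275), and whether the counting used strand is not given in the sources used here. It also shares 50-base windows with 40 other genes, and 83.6% of its windows are found in no other gene, against 91.6% for H3f3b. The mean of H3f3a in the authors' deposited table was 8.70 times that of the count table, against 1.81 times for H3f3b. Of the clustered H3 genes, Hist1h3d was tested (0.01 ± 0.27, adjusted p = 0.976, edgeR) at 9 to 25 counts per library, and Hist1h3b was not.

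The H2A variants went in both directions. H2afv, which encodes H2A.Z.2, was at 30.7, 31.4, 35.3 and 28.4 CPM in ScxWT and 25.5, 25.1, 26.4 and 27.3 CPM in ScxKO, a fall of -0.27 ± 0.07 (adjusted p = 0.00655, edgeR). Its paralog H2afz, which encodes H2A.Z.1, did not pass, at 53.7, 54.7, 51.5 and 56.4 CPM against 50.8, 49.6, 53.8 and 52.2 CPM (-0.07 ± 0.05, adjusted p = 0.314, edgeR). The difference between the paralogs was not tested. Only 30.4% of the 50-base windows of H2afz are found in no other gene, so its counts depend on how shared reads were assigned, while all windows of H2afv are its own.

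H2afy, which encodes macroH2A1, a large H2A variant linked to repressed chromatin, rose. Its levels were 98.6, 96.7, 95.4 and 96.2 CPM in ScxWT and 103.7, 109, 105 and 103 CPM in ScxKO (0.12 ± 0.04, adjusted p = 0.0322, edgeR). The groups do not overlap, but the call was lost when any of 5 libraries was left out, ScxWT replicate 2 or 6 or ScxKO replicate 2, 3 or 4, with adjusted p from 0.0519 to 0.106 (edgeR). H2afy2, which encodes macroH2A2, was at 22.2, 21.4, 22.7 and 21.8 CPM against 22.0, 19.4, 18.6 and 17.99 CPM, with ScxKO replicate 2 inside the ScxWT range (-0.18 ± 0.07, adjusted p = 0.0686, edgeR). Without that library its adjusted p was 0.0189 (edgeR).

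H2afx encodes H2A.X, the variant phosphorylated at DNA breaks, and is the one variant whose transcript holds a stem-loop and, beyond it, a poly(A) signal. It was at 25.8, 24.2, 35.1 and 30.7 CPM in ScxWT and 26.4, 23.3, 23.7 and 23.2 CPM in ScxKO. The log2 change of -0.27 ± 0.10 was as large as that of H2afv, with a wider interval of -0.47 to -0.06 and an adjusted p of 0.0503 (edgeR). It passed with DESeq2 (adjusted p = 0.0453) and without ScxWT replicate 2 or 3 or ScxKO replicate 2 (adjusted p from 0.0123 to 0.0459, edgeR). Under 11 of 19 alternative settings it did not pass. ScxWT replicate 5 was its highest library, and over left-out libraries the change was -0.34 to -0.16. H2afj, which encodes the H2A variant H2A.J, was at 54.6, 50.6, 81.8 and 59.0 CPM against 64.4, 54.2, 64.4 and 63.4 CPM, and ScxWT replicate 5 was by far its highest value. Over all libraries the change was 0.00 ± 0.11, and without that replicate it was 0.17 (adjusted p = 0.0268, edgeR).

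Of the clustered H2A members, 2 of 5 were tested and neither passed. Hist3h2a, the one with the most counts, was at 6.15, 4.87, 8.13 and 6.03 CPM in ScxWT and 6.83, 7.62, 7.26 and 7.42 CPM in ScxKO (0.20 ± 0.13, adjusted p = 0.269, edgeR). Here too ScxWT replicate 5 was the highest library, and without it the ScxKO libraries were all above the ScxWT libraries (0.36, adjusted p = 0.0115, edgeR). Part of its exons, 33.0% of the bases, is shared with Trim17 on the same strand and Gm44313 on the opposite strand. Hist1h2al, annotated as a processed pseudogene, was at 1.34, 1.28, 2.90 and 1.44 CPM against 2.08, 0.982, 1.57 and 1.48 CPM (-0.23 ± 0.28), with ScxWT replicate 5 again the highest.

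Hist1h2bc was the clustered gene that rose. It encodes an H2B and lies at chr13:23684199-23692908 on the plus strand, a span much longer than its transcript of 1156 bases, since its annotated transcript is spliced. Its levels were 63.4, 64.5, 64.6 and 58.8 CPM in ScxWT and 69.9, 71.9, 78.1 and 71.5 CPM in ScxKO, with no overlap (0.21 ± 0.05, adjusted p = 0.00412, edgeR). On the 6 libraries numbered 2, 3 and 5 alone the change was 0.15 and did not pass (adjusted p = 0.0534, edgeR). Of its 50-base windows, 69.4% are found in no other gene. The other H2B members did not pass. Hist1h2be (0.17 ± 0.14) and Hist2h2be (-0.23 ± 0.15) had 37 to 68 counts per library. Hist1h2bg had the largest point estimate of any member, 0.65 ± 0.37, on 4 to 15 counts, with a 95% interval of -0.14 to 1.43 (adjusted p = 0.211, edgeR). Hist2h2bb (0.32 ± 0.31) had 7 to 14 counts, and all of its exonic bases lie in other annotated genes.

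Clustered H4 was represented by Hist1h4h and Hist1h4i. Hist1h4h was at 2.34, 2.94, 3.26 and 2.27 CPM in ScxWT and 3.09, 3.04, 2.44 and 3.51 CPM in ScxKO (0.17 ± 0.16, adjusted p = 0.453, edgeR). Hist1h4i was at 2.81, 2.19, 3.02 and 2.53 CPM against 2.99, 2.62, 2.03 and 2.56 CPM (-0.05 ± 0.15, adjusted p = 0.83, edgeR). The groups overlapped in both genes, and their intervals, -0.16 to 0.50 and -0.38 to 0.27, span changes that were not detectable at 35 to 81 counts per library. The 7 untested members together were at 2.15 ± 0.436 CPM in ScxWT and 2.76 ± 0.408 CPM in ScxKO.

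Clustered rows were also set apart by how far the annotated transcript runs on past its stem-loop. Among the 22 clustered rows with at least 100 annotated bases after the stem-loop, 9 were members and the median of the mean counts was 3.75. Among the 21 rows with under 100 bases after it, 6 were members and the median was 1. Among the 25 with no stem-loop in the transcript, 5 were members and the median was 1.25. Some of these 25 have short annotated transcripts, such as Hist1h4k at 312 bases and Hist1h2bl at 381, while that of Hist2h2be has 2620. A stem-loop beyond the annotated end was not searched, so these rows are not shown to lack one. No difference between these sets was tested. The first set was also easier to count, since a median of 80.8% of its 50-base windows are found in no other gene, against 39.6% in the second. The part of each in the levels was not tested. A poly(A) signal (AATAAA or ATTAAA in the last 40 bases) was found in 6 of 20 clustered members and 8 of 10 variants. Over all clustered rows, 17 held one, of which 11 lie below the member limit, and their median mean count was 2.25, against 1.38 for the 51 rows without one. The members with one include Hist1h1c and Hist2h2be, while Hist1h2bc, at a mean count of 1435, has none in its representative transcript.

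**Figure D3:**
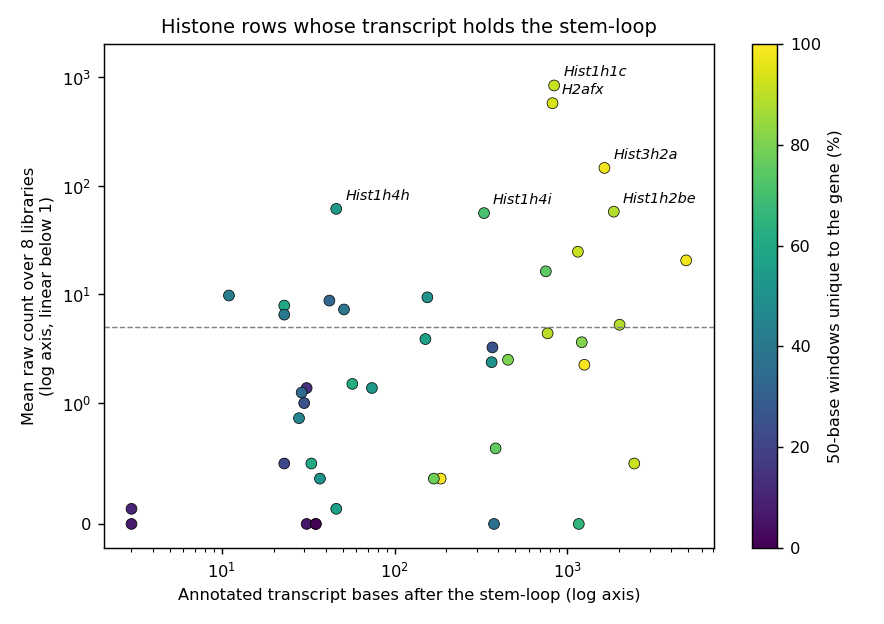
Mean raw count over the 8 libraries (log axis, linear below 1) against the annotated transcript bases after the stem-loop (log axis), for the histone rows whose transcript holds the stem-loop; colour gives the percent of 50-base windows found in no other gene, and the dashed line is the limit of 5. Hist1h1c and H2afx, with 840 and 822 bases after the stem-loop, have the highest counts, rows with under 100 bases after it reach at most 61 counts, and the darkest points, with the fewest windows of their own, lie near 0.

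By this grouping none of the 10 tested members with a stem-loop was called by edgeR, where 28.5% of all tested genes were called. Of these 10, 9 are clustered. One of them, H2afx, had an unadjusted p under 0.05 and was called lower by DESeq2, and limma-voom called 0. Of the 13 tested members without a stem-loop in the annotated transcript, 9 of them variants, 2 rose and 4 fell (14.0% and 14.5% of all tested genes). Their median log2 change was -0.18, against 0.04 for those with one. This split largely repeats that into clustered genes and variants, and its difference was not tested. Library content bears on what these counts can show. The protocol label says total RNA and a standard Illumina preparation, and whether poly(A) RNA was selected is not given in the sources used here. Of 18 listed genes for small RNAs and other transcripts without a poly(A) tail, 11 were in the table, 3 of those at 0, and 2 had enough counts to be tested (Rmrp and Rpph1). The 11 summed to 5.59 to 10.2 CPM in ScxWT and 4.64 to 9.27 CPM in ScxKO. Rmrp, the RNA of RNase MRP, was at 3.90, 2.57, 2.25 and 4.94 CPM in ScxWT and 2.58, 2.76, 1.92 and 4.18 CPM in ScxKO, and neither gene passed (edgeR; 0 at an unadjusted p under 0.05, by DESeq2 or by limma-voom).

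Genes of the replication and division programme mostly fell, where 14.5% of all tested genes were called lower and 14.0% higher. Of 30 S phase genes, 23 fell and 0 rose by edgeR (0 higher at an unadjusted p under 0.05, by DESeq2 or by limma-voom), with a median log2 change of -0.38. Of 20 mitosis genes, 20 fell and 0 rose by the same 3 tools and at an unadjusted p under 0.05, with a median of -0.43. Rrm1, a subunit of ribonucleotide reductase, was at 191, 209, 184 and 215 CPM in ScxWT and 145, 151, 148 and 136 CPM in ScxKO (-0.46 ± 0.05). Ccne2, a cyclin of S phase entry, changed by -0.96 ± 0.12, Mcm6, a subunit of the replicative helicase, by -0.55 ± 0.05 and Mcm5 by -0.64 ± 0.07. Mki67, the proliferation marker Ki-67, was at 132, 142, 110.2 and 159 CPM against 97.8, 100.3, 95.2 and 80.9 CPM (-0.54 ± 0.09). All 5 had no overlap between the groups. Of the mitosis genes, the kinesin Kif11 changed by -0.61 ± 0.08, topoisomerase Top2a by -0.51 ± 0.08 and the kinase Plk1 by -0.45 ± 0.07. In bulk RNA, fewer cells in S phase and less mRNA per such cell cannot be told apart. The clustered histone genes are known as S phase genes. In this fit 0 of 13 tested were called lower, where 14.5% of all tested genes were. At few counts, some intervals take in the S phase median, such as those of Hist1h1d (-0.78 to 0.16) and Hist1h3d (-0.57 to 0.60). Others at few counts do not, such as those of Hist3h2a (-0.07 to 0.47), Hist1h2be (-0.14 to 0.47) and Hist1h4h (-0.16 to 0.50). Those of the clustered members with the most counts, Hist1h2bc (0.11 to 0.32) and Hist1h1c (-0.28 to 0.02), do not either. Whether the clustered genes shifted with the lists was not tested.

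Genes that make and process histone mRNA changed little as a list: of 21 tested, 2 rose and 3 fell, with a median of -0.01, where 14.0% and 14.5% of all tested genes were called in those directions. Slbp, the stem-loop binding protein, was among those that fell, at 34.0, 33.8, 31.5 and 34.6 CPM in ScxWT and 28.3, 30.4, 29.5 and 25.8 CPM in ScxKO, with no overlap (-0.23 ± 0.06, adjusted p = 0.00875, edgeR). Casp8ap2 (FLASH), a component of the histone locus body, changed by -0.20 ± 0.06 and Eri1, a nuclease that trims histone mRNA ends, by -0.18 ± 0.06. Lsm10, a subunit of the U7 small nuclear ribonucleoprotein, rose by 0.21 ± 0.07 and Cdk9, the kinase of transcription elongation, by 0.14 ± 0.05. Npat, the activator of clustered histone transcription, did not pass (-0.10 ± 0.06, adjusted p = 0.241, edgeR). The calls of Casp8ap2, Eri1, Lsm10 and Cdk9 each rest on the libraries: leaving out any of 4 to 7 single libraries put their adjusted p at 0.0509 to 0.153 (edgeR), while that of Slbp was kept each time.

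Of 30 histone chaperones and deposition factors, 10 fell and 1 rose (Ubn1), with a median of -0.04. Of all tested genes, 14.5% were called lower and 14.0% higher. Those that fell were Asf1b and the CAF-1 subunits Chaf1a and Chaf1b, which deliver H3 and H4 at the replication fork, Nasp, Hat1 and Rbbp7, which handle new H3 and H4, Mcm2 and Tonsl, which bind histones at the fork, Hjurp, the chaperone of Cenpa, and Dek. Dek was at 72.8, 75.6, 62.4 and 76.9 CPM in ScxWT and 49.9, 54.0, 49.8 and 48.8 CPM in ScxKO (-0.51 ± 0.06). Tonsl changed by -0.43 ± 0.10, Hat1 by -0.34 ± 0.08 and Rbbp7 by -0.18 ± 0.04. Ubn1, part of the HIRA complex that deposits H3.3, rose by 0.12 ± 0.04. Cenpa, the H3 variant of centromeres, which the symbol rule does not take in, fell by 0.23 on the log2 scale (adjusted p = 0.0287, edgeR), from 23.0 ± 0.621 to 19.6 ± 2.10 CPM (SD, n = 4), with ScxKO replicate 2 inside the ScxWT range. The calls of Chaf1b, Hjurp, Ubn1 and Cenpa were each lost when any of 4 or 5 libraries was left out (adjusted p from 0.0509 to 0.104, edgeR).

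**Figure D4:**
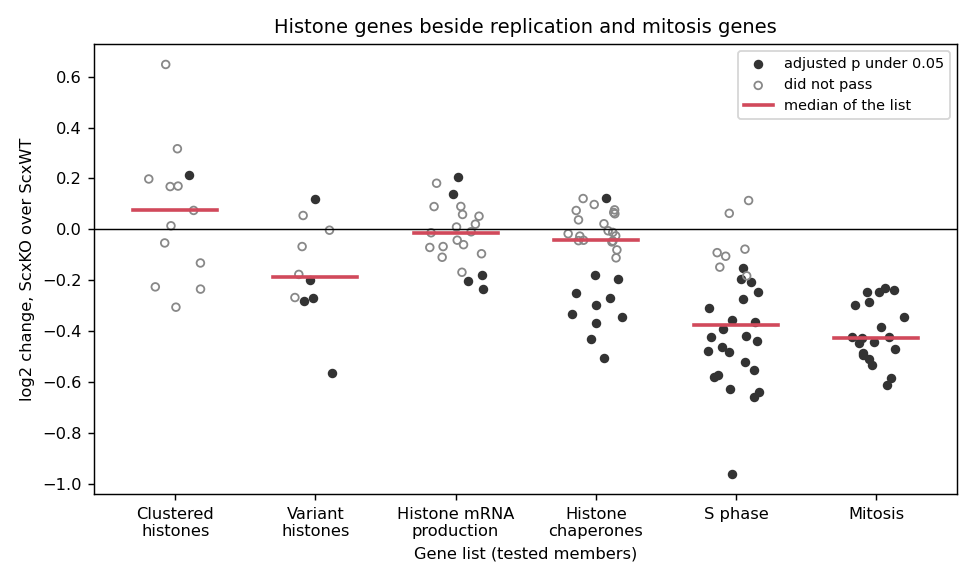
Log2 change of ScxKO over ScxWT for each tested gene of 6 lists; filled points passed at an adjusted p of 0.05 (edgeR), open points did not, and red bars are list medians. Mitosis genes are all filled and below 0 and S phase genes mostly so, variants lie mostly below 0, and clustered histone genes scatter on both sides of 0.

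The promoters of both classes were searched for 4 motifs, with no test of a difference between the classes. RefSeq promoters (build GRCm38.p6, 250 bases before to 50 after the annotated start) matched 26 of 30 members, 17 clustered and 9 variant. CCAAT, the site of the factor NF-Y, was found on either strand in 15 of 17 clustered and 6 of 9 variant promoters, against 37.9% of 27025 promoters. TATAA, the core of the TATA box, was found in 15 of 17 clustered promoters and in 1 of 9 variant promoters (H3f3b), against 25.5% of all. TTTNNCGC, an E2F-like motif, was found in 4 of 17 and 0 of 9 (5.27% of all), and CANNTG, the E-box that basic helix-loop-helix factors such as Scleraxis bind, in 12 of 17 and 5 of 9 (72.1% of all). Matches of CCAAT and CANNTG can share letters, and a match is a description, not a site. A clustered promoter and the called variant with a TATAA are printed to show the arrangement, with CCAAT and TATAA on either strand in capitals, along the gene's strand.

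Hist1h3d promoter, chr13:23575513-23575812, plus strand: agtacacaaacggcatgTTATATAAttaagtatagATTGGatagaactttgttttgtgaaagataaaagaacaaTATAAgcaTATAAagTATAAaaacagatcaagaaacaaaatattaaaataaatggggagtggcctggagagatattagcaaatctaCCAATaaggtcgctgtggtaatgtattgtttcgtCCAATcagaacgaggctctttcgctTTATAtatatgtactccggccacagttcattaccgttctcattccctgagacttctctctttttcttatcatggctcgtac

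H3f3b promoter, chr11:116024455-116024754, minus strand: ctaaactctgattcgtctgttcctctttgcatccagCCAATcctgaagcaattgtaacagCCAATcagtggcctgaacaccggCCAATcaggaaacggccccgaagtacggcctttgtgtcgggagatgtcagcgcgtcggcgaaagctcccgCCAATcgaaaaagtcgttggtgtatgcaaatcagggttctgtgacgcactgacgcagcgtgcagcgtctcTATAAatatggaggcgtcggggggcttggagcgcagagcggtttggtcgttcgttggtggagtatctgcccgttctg

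The H3f3b start used by RefSeq lies inside the GENCODE span of the gene (chr11:116021912-116027962). Its window holds CCAAT and, nearer the start, TATAA. The other variants with a matched promoter, such as H1f0, hold no TATAA in this window.

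The authors' deposited table of their own comparison lists some histone genes as expressed that the count table lists at 0. Over 13763 genes in both tables with a mean count of at least 5, the mean in the authors' deposited table was 1.26 times the mean of the count table in the median gene (quartiles 1.22 and 1.31), and 4.71% of genes reached 2 times. Among members the median ratio to the authors' deposited table was 1.34, and 3 of 30 reached 2: H3f3a at 8.70, H2afz at 2.64 and Hist1h2bc at 2.58. Among the 15 members in which at least 90% of 50-base windows are found in no other gene, the ratio to the authors' deposited table was 0.988 to 1.81. Among the 9 members at 50 to 90%, H3f3a among them, it was 0.999 to 8.70, and among the 6 members under 50% it was 0.885 to 2.64. The median ratios to the authors' deposited table were 1.24, 1.61 and 1.74 in that order.

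Some rows at or near 0 in the count table had high values in the other. Hist2h2aa1, an H2A gene with a near-identical copy beside it, was at 0 in every library of the count table and had a normalized mean of 822 in the authors' deposited table. Only 3.72% of its 50-base windows are found in no other gene. Its copy Hist2h2aa2 (0% of windows) had a mean of 54.7 in the authors' deposited table, and the H3 genes Hist2h3c2 and Hist2h3c1 had 211.5 and 88.8, all listed at 0 in the count table. Hist1h4m, with 1 count in all 8 libraries (a mean of 0.125), had 63.9 in the authors' deposited table. For these rows the tables thus differ on whether the gene is listed as expressed, and the cause was not tested. None of these 5 rows passed in the authors' deposited table, with adjusted p from 0.149 to 0.848.

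**Figure D5:**
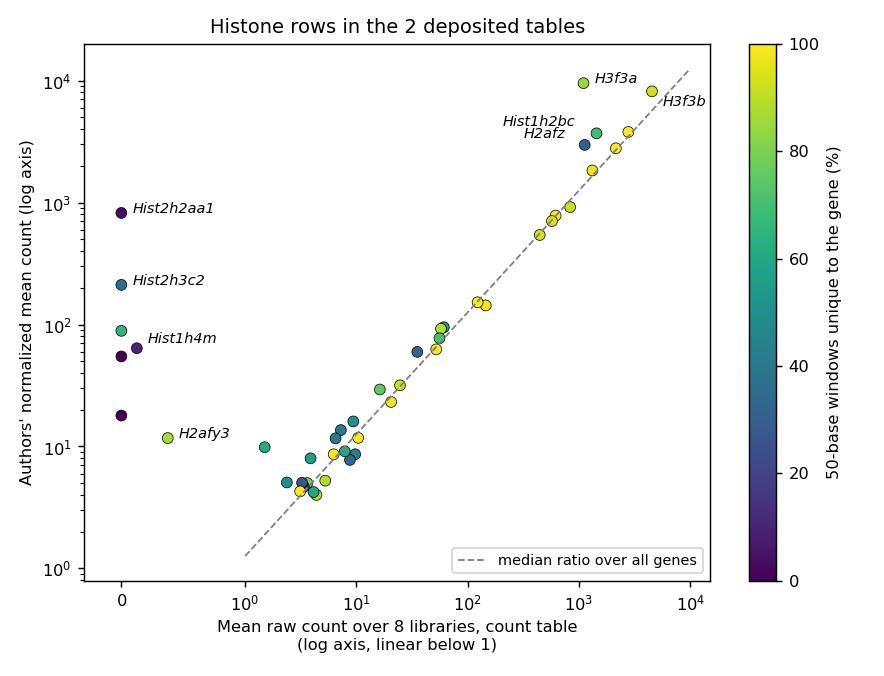
Mean normalized count in the authors' deposited table (log axis) against the mean raw count of the count table (log axis, linear below 1) for the 46 histone rows in both; colour gives the percent of 50-base windows found in no other gene and the dashed line is the median ratio over all genes, 1.26. H3f3a, H2afz and Hist1h2bc lie above the line, and Hist2h2aa1 and Hist2h3c2 have high values at 0 counts.

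The 6 calls of the count table kept their direction and their side of 0.05 in the authors' deposited table. Of the 30 members, 2 were higher and 8 lower in the authors' deposited table, against 15.1% and 14.1% of 14511 genes and 29.2% in either direction. The 4 additional lower calls in the authors' deposited table were H2afx (log2 change -0.23), H2afy2 (-0.19), H2afz (-0.13) and Hist1h1c (-0.16, adjusted p = 0.0484). As the same libraries lie behind both tables, they are not independent measurements.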

How the data were processed

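RNA from cultured tail tendon fibroblasts was sequenced in 8 libraries, 4 ScxWT and 4 ScxKO, grouped by title and genotype. The authors deposited whole-number counts per gene with 1 column per library. The submitters' processing notes name STAR, DESeq2, FastQC and the mouse build mm10. Counter, annotation, read length and strand setting: not given in the sources used here. Per the file headers, the second file deposited by the authors is a comparison of ScxKO and ScxWT with a normalized mean signal per gene, log2 fold changes and their errors, a test statistic (score) and p-values. The authors' normalized means do not follow from the deposited counts for every gene, so its values were used only beside those of the count table.

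Counts were scaled by TMM, filtered with filterByExpr (minimum count of 10) and tested with edgeR 4.0.16 (glmQLFit, glmQLFTest, group only; R 4.3.3) over 13125 genes, with Benjamini-Hochberg adjustment. Rows that name no gene (reads in no feature, 7.44 to 8.67%, or ambiguous, 0.490 to 0.567% of all counts with these rows included) stayed out of library sizes. Log2 changes are ScxKO over ScxWT with a standard error from the quasi-likelihood F. CPM use TMM factors. The scripts were tested on simulated counts. Replicates differed by more than sampling noise, so none was merged.

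Gene models, transcripts and overlaps came from GENCODE M21 and promoters from RefSeq. Windows of 50 bases were counted as a gene's own where no gene at another locus held them. The alternatives changed the tool (DESeq2 1.42.0 or limma-voom 3.58.1), the scaling (upper-quartile or RLE) and the filter (none, or 5 CPM in at least 4 libraries), and also tried thresholds of 0.01 and 0.1, offsets for GC content and length, the replicate number as a block, leaving out each library, and member limits of 2 and 20.

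The members and gene lists were chosen with earlier results of these data known. The search for shared windows, the split at 100 bases after the stem-loop, the exon overlaps, the motifs, the ratio between tables and the clustered sum without Hist1h2bc and Hist1h1c were chosen after the values were seen. Named with values were each member past 0.05, the most abundant and most changed member of each family and class, the 3 members on either side of the limit, up to 4 genes with the smallest p of each list, and Slbp, Npat, Cenpa, Scx and Mki67. Further genes, such as Hist1h2ad, Eri1, Ubn1 and the rows named from the authors' table, were added after their values were seen.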

Additional observations from a re-analysis of the deposited data

Results flagged for a closer look

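In 8 of 118 sets of 4 libraries, 1 library was far from the other 3 (by Dixon's test of the gap over the range), where chance flags about 1 in 20. H2afj was lowest in ScxKO replicate 3, at 54.2 CPM against 63.4 to 64.4 in the others (gap over range 0.896), and H2afx highest in ScxKO replicate 2, at 26.4 CPM against 23.2 to 23.7 (0.840). Hist1h2ac (0.443 CPM against 0.0874 to 0.130, 0.880) and Hist1h2al (2.90 against 1.28 to 1.44, 0.902) were highest in ScxWT replicate 5. Hat1 was lowest there, at 27.6 CPM against 35.1 to 36.6 (0.832). Mcm2 was lowest in ScxKO replicate 3, at 39.3 CPM against 42.1 to 42.5 (0.857). Tonsl was highest in ScxWT replicate 6, at 9.13 CPM against 7.33 to 7.49 (0.908), and Top2a, a mitosis list gene, lowest in ScxKO replicate 5, at 88.1 CPM against 101.4 to 102.4 (0.930).

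A total of 5 histone rows are at 0 in every library of the count table but have a normalized mean in the authors' deposited table, which the comparisons between groups did not use. These are Hist2h2aa1 with 822, Hist2h3c2 with 211.5, Hist2h3c1 with 88.8, Hist2h2aa2 with 54.7 and Hist1h2bq with 17.9 in the authors' deposited table. At most 65.3% of the 50-base windows of any of them are found in no other gene.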

How the results depend on the processing

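H1f0, H1fx, H2afv, H3f3b and Slbp kept their direction and call under all 19 alternatives. H2afy lost its call under 10 of 19 and Hist1h2bc under 2, the replicate block (0.15, adjusted p = 0.0551) and the same 6 libraries without it (0.15, adjusted p = 0.0534). Of the clustered members, 7 of 20 had too few counts to be tested, and the 95% intervals of 12 of the 13 tested span both directions.

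The same-numbered libraries correlated by -0.06 (number 2), 0.16 (number 3) and 0.06 (number 5) in their deviations from the group means, so the numbers were not taken to pair the libraries. With the replicate block on numbers 2, 3 and 5, 1585 genes were higher and 1616 lower, against 1842 and 1902 in the full comparison. In the same block fit 0 members were higher (0 clustered, 0 variant) and 5 lower, 1 of them clustered (Hist1h1c, -0.19, adjusted p = 0.0442), and the histone mRNA list had 0 higher and 1 lower and the chaperones 0 higher. Those 6 libraries without the block gave 1289 genes higher and 1239 lower, with 0 members higher in either class. The histone mRNA list had 0 higher and 1 lower there, and the chaperones 0 higher and 5 lower.

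Upper-quartile scaling gave 1539 genes higher and 2288 lower, with 1 member higher, 0 of them variant, 1 gene higher in the histone mRNA list and 0 among chaperones. Without a filter 1860 genes were higher and 1885 lower, with 1 member higher, 0 of them variant, and 0 chaperones higher. At a threshold of 0.01, 1191 genes were higher and 1143 lower, 1 member higher and 0 variants higher, 0 higher and 1 lower in the histone mRNA list, and 0 chaperones higher. With GC and length offsets 2850 genes were higher and 2197 lower. Of the members 8 were lower there (7 variant and 1 clustered), and 4 genes were higher in the histone mRNA list, 4 among chaperones and 1 of S phase. The clustered median was 0.18 without a filter, 0.20 with the filter of 5 CPM and 0.19 with DESeq2, where the genes tested differ.

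Leaving out 1 library at a time gave 1447 to 2409 genes higher and 1427 to 2310 lower over all tested genes. In these fits 1 to 4 members were higher (1 to 2 clustered, 0 to 2 variant) and 4 to 6 lower, with a clustered median of 0.067 to 0.18. The histone mRNA list had 0 to 3 higher and 1 to 4 lower, and 0 to 3 chaperones were higher. Of the S phase genes 0 to 1 were higher and 22 to 24 lower, and of the mitosis genes 15 to 20 were lower. The highest count of members came without ScxWT replicate 5, where the counts over all genes, 2409 higher and 2310 lower, were also highest.

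Genes with no call turned sign. Hist1h4i was 0.020 with the replicate block, 0.0093 on the same libraries without it and -0.13 to 0.030 when 1 library was left out. Hist1h3d was -0.0096 with upper-quartile scaling, -0.049 with limma-voom, -0.029 with the offsets and -0.26 to 0.19 over left-out libraries. H2afj was 0.0043 with DESeq2, 0.014 with limma-voom and -0.081 to 0.17 over left-out libraries. Over left-out libraries Hist1h1e was -0.082 to 0.28 and Hist1h2al -0.41 to 0.16. Rmrp was 0.15 with the replicate block, 0.14 without it and -0.48 to 0.0014 over left-out libraries. Rpph1 was 0.30, 0.29 and -0.17 to 0.14 in the same order, and 0.039 with the offsets. Where a value moved, the cause was not tested.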
